A study of Rattus norvegicus with 20 samples.

Results

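Calcium pumps and sodium-calcium exchangers carry calcium out of the cytosol. This account follows 10 genes of 4 families in rat globular bushy cells at 3 postnatal ages. They are the plasma membrane calcium ATPases Atp2b1, Atp2b2, Atp2b3 and Atp2b4, the endoplasmic reticulum calcium ATPase Atp2a2, the sodium-calcium exchangers Slc8a1, Slc8a2 and Slc8a3, and the potassium-dependent sodium-calcium exchangers Slc24a2 and Slc24a3. They were chosen by symbol, as all probe sets that the array's annotation assigns to exactly 1 gene with one of these symbols. This gave 10 of 14218 genes and 22 of 20832 probe sets, and 19 of the 22 passed the filter on dim probe sets, which asks for a level above log2 4 in at least 5 of 15 arrays. The 3 that did not pass were Atp2b2 1387285_at, Atp2b3 1388237_s_at and Slc8a1 1370588_a_at.

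All animals were Sprague Dawley rats injected with cholera toxin B, a retrograde tracer, 24 hours before the brain was removed. The tracer was placed in the medial nucleus of the trapezoid body, the target of the globular bushy cell axons, and the labelled cells of the opposite cochlear nucleus were cut out by laser microdissection. Each array holds 200 such cells from 12 µm sections of 1 animal, after 2 rounds of linear amplification. There were 6 arrays at P3, 9 at P8 and 5 at P21, and the labels call them biological replicates. Each sample may also hold pieces of the cells that surround the labelled ones.

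Calcium that enters a nerve terminal during an action potential is bound by buffers and then removed. Plasma membrane calcium ATPases expel it at the cost of ATP, with high affinity and low turnover, and the reticulum ATPase pumps it into the store from which release channels let it out again. Sodium-calcium exchangers use the sodium gradient, and the Slc24 exchangers use the potassium gradient as well. Removal of calcium by pumps, exchangers and mitochondria has been measured in the rat calyx of Held, the giant terminal of these cells.

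Values below are levels on the scale log2(intensity + 1), or differences of such levels between ages. A level of 1 probe set is not set against that of another, since probes differ in their yield. Differences and adjusted p-values come from 1 limma fit of 15 arrays, P3, P8 replicates 1 to 4 and P21, with Benjamini-Hochberg adjustment over 15650 probe sets, and a probe set was called at an adjusted p under 0.05. Fewer cells of a type in a sample and less RNA per cell cannot be told apart on these arrays.

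P8 replicates 5 to 9 stood apart and are given separately. Their bacterial control probe sets had a mean of 8.01 ± 0.25 in these arrays, against 4.87 ± 0.19 in P8 replicates 1 to 4 (SD, n = 5 and 4). Arrays of these 2 sets correlated across probe sets at 0.658 on average, and arrays within P8 replicates 1 to 4 at 0.919. Of the 19 tested probe sets of the pumps and exchangers, 12 did not overlap between P8 replicates 5 to 9 and 1 to 4, 7 higher and 5 lower, which is 63.2%, against 37.2% of all tested probe sets. Slc24a3 1376165_at, for example, lay at 6.30, 7.19, 7.57, 5.63 and 7.50 in P8 replicates 5 to 9, against 9.10, 10.46, 10.56 and 10.17 in replicates 1 to 4.

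The samples were checked against cell type markers. General neuron markers averaged 9.81 to 9.92 at P3, 10.07 to 10.39 at P8 in replicates 1 to 4 and 9.87 to 10.22 at P21. The 9 measured of 12 bushy cell and fast auditory neuron markers, such as Kcnc1 and Pvalb, averaged 6.01 to 6.86 at P3, 7.52 to 9.38 at P8 and 9.71 to 10.14 at P21. The 11 measured of 12 oligodendrocyte and myelin markers averaged 4.45 to 5.65 at P3, 6.91 to 8.32 at P8 and 8.13 to 8.98 at P21, with summed intensities of 820 to 2185, 5719 to 8896 and 7278 to 10829. No marker of either list was at 0 on any of the 15 arrays. The Gapdh control probe sets differed between their 3' and 5' ends, a sign of how far amplification reached along the RNA, by 2.91 ± 0.27 at P3, 3.27 ± 0.42 at P8 and 3.99 ± 0.66 at P21 (SD, n = 6, 4 and 5). The same measure on the actin control probe sets did not rise with age, at 4.70 ± 0.30 at P3, 4.29 ± 0.19 at P8 and 4.32 ± 0.69 at P21 (SD, n = 6, 4 and 5).

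At P21 against P3, all 9 bushy cell and all 11 myelin markers tested were higher, and of 8 general neuron markers 3 were higher. Over all tested probe sets 20.1% were higher and 19.0% lower. Of 4 tested oligodendrocyte precursor markers 3 were lower, with log2 differences of -2.34 ± 0.50 for Cspg4, -1.90 ± 0.18 for Olig1 and -1.51 ± 0.35 for Pdgfra (SE), and Sox10 was higher (0.90 ± 0.28). Both tested inhibitory neuron markers were lower, Gad1 (-0.99 ± 0.27) and Slc32a1 (-0.96 ± 0.36). Of 8 astrocyte markers, Slc1a3 (-2.08) and Aldh1l1 (-1.62) were lower and Slc1a2 (1.25) and S100b (0.75) higher. Of 4 granule cell markers, Gabra6 was higher by 4.48 and the others did not pass. None of 7 microglia or 4 choroid plexus markers passed, 1 of 9 vascular markers was higher, and 1 of 2 Schwann cell markers was lower. The summed intensities of the precursor markers were 403 to 792 at P21 and 1368 to 1894 at P3. Those of the inhibitory markers were 293 to 784 at P21 and 754 to 1358 at P3, and those of the astrocyte markers 5738 to 7100 at P21 and 4852 to 10081 at P3. Markers of several cell types and the Gapdh difference thus moved with age, some higher and some lower, and their part in the results below was not tested.

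Of the 19 tested probe sets of the pumps and exchangers, 12 were called at P21 against P3, 8 higher and 4 lower. Over all tested probe sets 39.1% were called, 20.1% higher and 19.0% lower. The 19 had a median difference of 0.39, against 0.02 over all. At P8 against P3, 6 were called, 5 higher and 1 lower, where 15.6% of all were called, 7.81% higher and 7.75% lower, and the medians were 0.27 and -0.02. At P21 against P8, 6 were called, 3 in each direction, where 16.7% of all were called, 8.31% higher and 8.42% lower, and the medians were 0.14 and 0.06. The arrays of the 2 ages did not overlap for 8 of the 19 at P21 against P3, for 4 at P8 against P3 and for 6 at P21 against P8, with 28.7%, 14.0% and 14.1% of all tested probe sets. With 1 probe set per gene, that of highest mean, Slc24a2, Atp2b3, Atp2b4, Slc8a2 and Atp2a2 rose at P21 against P3, Slc24a3, Atp2b1 and Slc8a1 fell, and Atp2b2 and Slc8a3 did not pass. Several probe sets share a gene and the comparisons share arrays, so these counts are not independent. Slc24a2 1388000_at passed the filter only through its P21 arrays. It is counted among the calls and among the probe sets without overlap, at P21 against P3 and at P21 against P8.

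The 2 potassium-dependent exchangers parted between the ages, and Atp2b1 and Atp2b3 did so among the plasma membrane pumps. Promoter sequences of Slc24a2, Slc24a3 and Atp2b1 are shown because these 3 genes held the largest called differences of P21 from P3 with a promoter in the table, 1 upward and 2 downward. They run from 250 bases before to 50 bases after the annotated start and are RefSeq sequences of the rat assembly GRCr8, with GC boxes in capitals. Slc24a2 lies at chr5:106787731-106788030 on the minus strand, Slc24a3 at chr3:153005168-153005467 on the plus strand and Atp2b1 at chr7:35622211-35622510 on the plus strand.
Slc24a2: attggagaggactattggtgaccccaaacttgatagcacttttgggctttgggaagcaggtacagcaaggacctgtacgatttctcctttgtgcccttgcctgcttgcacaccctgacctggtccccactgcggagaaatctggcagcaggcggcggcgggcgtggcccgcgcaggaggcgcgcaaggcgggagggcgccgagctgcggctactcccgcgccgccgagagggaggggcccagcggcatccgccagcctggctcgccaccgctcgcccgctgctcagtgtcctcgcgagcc
Slc24a3: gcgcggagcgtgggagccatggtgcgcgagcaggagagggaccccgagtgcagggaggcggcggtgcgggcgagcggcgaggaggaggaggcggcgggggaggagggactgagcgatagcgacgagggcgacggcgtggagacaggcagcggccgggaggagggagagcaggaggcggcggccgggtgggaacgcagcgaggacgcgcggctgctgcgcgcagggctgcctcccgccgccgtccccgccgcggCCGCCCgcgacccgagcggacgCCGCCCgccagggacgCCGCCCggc
Atp2b1: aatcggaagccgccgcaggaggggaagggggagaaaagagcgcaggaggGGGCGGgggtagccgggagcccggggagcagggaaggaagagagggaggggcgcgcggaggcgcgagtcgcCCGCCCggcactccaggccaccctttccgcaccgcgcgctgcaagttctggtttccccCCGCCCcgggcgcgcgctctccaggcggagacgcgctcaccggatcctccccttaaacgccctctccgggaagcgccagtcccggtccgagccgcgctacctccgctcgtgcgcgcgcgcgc

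Of the 10 genes, 9 were matched to a promoter. 4 motifs were searched on both strands: the GC box GGGCGG, the E-box CACGTG, the TATA box TATAAA and the core of the cyclic AMP response element, TGACG. None of these motifs contains another. The Slc24a2 window held none of the 4, with a GC content of 67.0%. The Slc24a3 window held 3 GC boxes at 80.0% GC and the Atp2b1 window 3 at 74.3%. Among all 33469 promoters of this length 33.1% held a GC box, 6.4% the E-box, 14.2% the TATA box and 21.2% the core TGACG, and the median GC content was 51.67%. Such matches describe letters in a window and nothing about which factor binds there.

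Slc24a2 encodes NCKX2, an exchanger of neurons and retinal cones. Its probe set 1383444_at had a lowest, median and highest level of 8.01, 8.42 and 8.79 at P3. The 4 P8 arrays lay at 9.87, 10.25, 10.25 and 9.99, and the 5 P21 arrays at 10.87, 11.10, 10.93, 10.76 and 10.44. The ages did not overlap. Slc24a2 rose by 1.66 ± 0.18 at P8 over P3 (SE, limma adjusted p = 9.18e-05) and by 0.73 ± 0.19 at P21 over P8 (adjusted p = 0.0150). The difference of P21 from P3 was 2.40 ± 0.17, or 5.26-fold, with an adjusted p of 1.10e-07. After subtraction of array medians the P21 over P8 difference was 0.65 with an adjusted p of 0.0621.

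The dimmer Slc24a2 probe set 1388000_at, at 1.49, 2.73 and 3.38 at P3 (lowest, median and highest), lay at 3.78, 2.35, 2.70 and 3.51 at P8 and at 4.31, 5.04, 4.55, 4.64 and 4.43 at P21. Only P21 stood above the rest. The 5 P21 arrays were the only ones of the 15 above log2 4, so this probe set passed the filter through them alone. Its calls at P21 are thus no separate support for the rise of Slc24a2. The probe set rose by 1.51 ± 0.34 at P21 over P8 (SE, limma adjusted p = 0.00745) and by 1.97 ± 0.31 at P21 over P3 (adjusted p = 1.55e-04). Its P8 minus P3 difference of 0.46 ± 0.33 did not pass. In P8 replicates 5 to 9, Slc24a2 1383444_at lay at 8.38, 7.60, 8.78, 8.74 and 8.39, against the 9.87 to 10.25 of replicates 1 to 4 and within or below the range of P3.

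Slc24a3 encodes NCKX3, which is found in brain and smooth muscle. On its brighter probe set 1376165_at the lowest, median and highest levels at P3 were 8.84, 9.08 and 9.25. The P8 arrays were at 9.10, 10.46, 10.56 and 10.17 and the P21 arrays at 7.40, 7.39, 6.64, 7.21 and 6.73. P21 was below both other ages on every array, and P8 replicate 1 lay within the range of P3. Slc24a3 fell by 3.00 ± 0.27 at P21 against P8, to 0.125 times its level at P8 (SE, limma adjusted p = 7.03e-06), and by 1.98 ± 0.24 at P21 against P3 (adjusted p = 1.42e-05). At P8 it was 1.02 ± 0.26 above P3 (adjusted p = 0.0153). That P8 call ended with array weights, at 0.72 with an adjusted p of 0.0573. It also ended with the replicate number as a block, at 0.92 with an adjusted p of 0.0830.

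A second Slc24a3 probe set, 1388221_at, was dim and moved the other way. Its levels were 3.51, 3.94 and 4.15 at P3 (lowest, median and highest), 4.43, 4.42, 4.56 and 4.00 at P8 and 4.11, 4.64, 4.35, 4.87 and 4.80 at P21. P21 replicate 1 lay within the range of P3 and the other P21 arrays above it, and the difference of P21 from P3 was 0.68 ± 0.18 (SE, limma adjusted p = 0.00666). The 2 probe sets of this gene thus disagree at P21 against P3, and why was not tested.

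Within an array, the Slc24a2 minus Slc24a3 difference does not depend on how the array was scaled. It averaged -0.62 ± 0.27 at P3, 0.02 ± 0.51 at P8 and 3.75 ± 0.32 at P21 (SD, n = 6, 4 and 5). The P21 minus P3 change of 4.37 had an exact permutation p of 0.00216, the smallest that 462 regroupings allow, and an adjusted p of 0.0186 over 30 such tests, two-sided by size. The change of P21 from P8 was 3.73 (exact permutation p = 0.00794, the smallest that 126 regroupings allow, adjusted p = 0.0238). On these probe sets Slc24a2 was higher and Slc24a3 lower at P21 on every array. Both smallest p-values thus follow from the single genes and are no separate support. The change of P8 from P3 was 0.64 (adjusted p = 0.0260 by exact permutation), and leaving out P3 replicate 2, 4, 5 or 6 or P8 replicate 1, 2 or 4 ended that call, with adjusted p-values of 0.0510 to 0.147. With any 1 of the 5 P21 arrays left out, the P21 against P8 change was 3.59 to 3.80 and its call ended, at adjusted p-values of 0.0571 to 0.0659. With so few regroupings, no P21 against P8 ratio can pass unless most of the 30 tests have small p-values. These fits thus cannot show whether the call rests on single arrays. With the probe set of second highest mean for both genes, the change was 1.30 at P21 against P3 (adjusted p = 0.0433). It was 1.31 at P21 against P8 (adjusted p = 0.0520), which ended that call, and -0.013 at P8 against P3. For Slc24a2 this is the dimmer probe set, which passed the filter only through its P21 arrays. A higher Slc24a2 level at P21 was thus favoured by the filter, and these changes at P21 are no separate support.

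**Figure D1:**
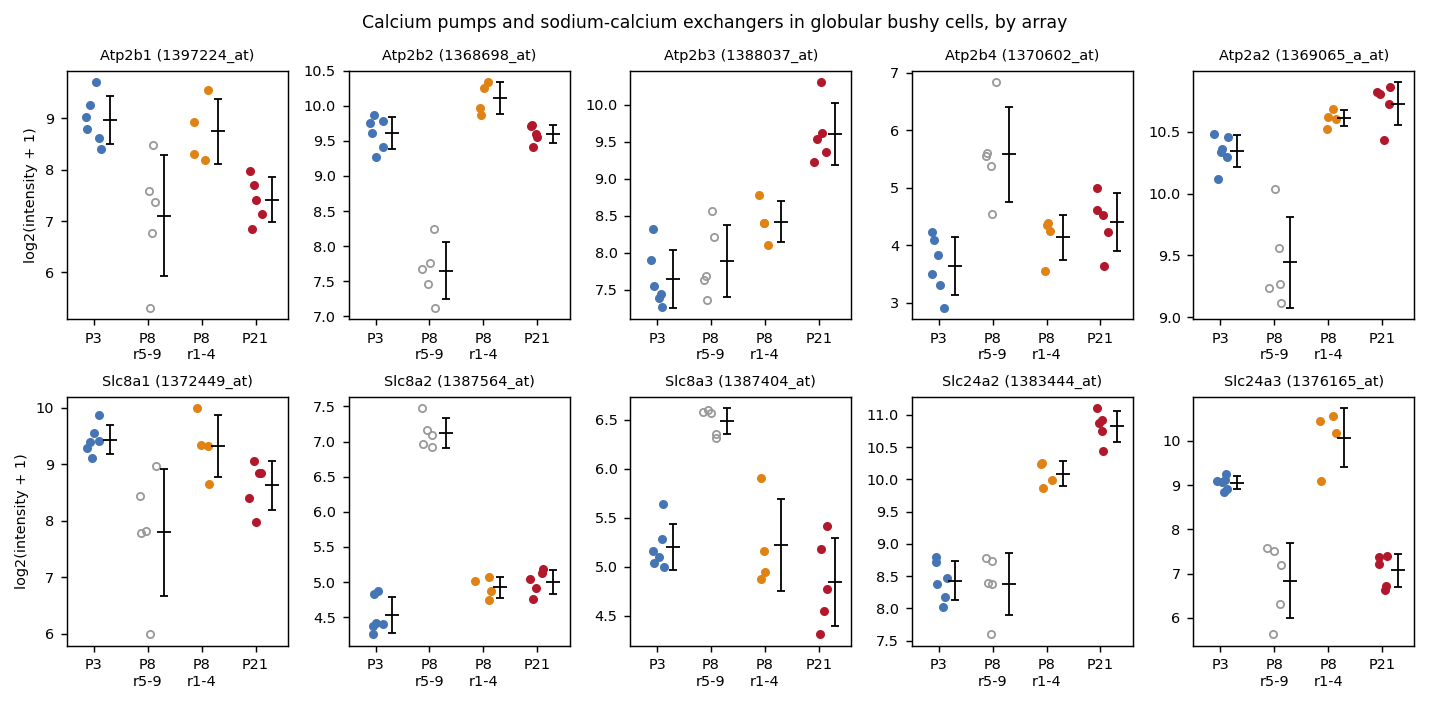
Levels of the 10 genes by array on the scale log2(intensity + 1), each gene shown by the probe set of highest mean, at P3 (n = 6), P8 replicates 5 to 9 (open circles, n = 5), P8 replicates 1 to 4 (n = 4) and P21 (n = 5), with the mean and SD beside each group. Slc24a2 is at 10.44 to 11.10 at P21, above all other arrays, and Slc24a3 at 6.64 to 7.40, below all arrays of P3 and of P8 replicates 1 to 4.

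Among the plasma membrane pumps, Atp2b1 encodes PMCA1, which most cell types express. Its probe set with the highest mean, 1397224_at, had a lowest, median and highest level of 8.39, 8.90 and 9.70 at P3. At P8 it was at 8.93, 9.55, 8.31 and 8.19, and at P21 at 7.96, 7.14, 7.42, 6.85 and 7.71. P3 and P8 overlapped and P21 lay below both. Atp2b1 fell by 1.33 ± 0.32 at P21 against P8 (SE, limma adjusted p = 0.0106) and by 1.55 ± 0.29 against P3 (adjusted p = 6.56e-04).

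On Atp2b1 1370050_at the level at P8 was already below that at P3. Its levels were 7.61, 8.36 and 9.22 at P3 (lowest, median and highest), 7.44, 7.08, 5.98 and 6.74 at P8 and 6.30, 6.12, 6.59, 5.91 and 7.06 at P21. P8 was below P3 on every array by 1.52 ± 0.33 on average (SE, limma adjusted p = 0.00745), and P21 by 1.94 ± 0.31 (adjusted p = 1.87e-04). The third Atp2b1 probe set, 1386426_at, lay at 7.51 to 9.27 at P3 and 6.94 to 8.06 at P21, with a P21 minus P3 difference of -0.69 ± 0.29 that did not pass (adjusted p = 0.0677). It passed without P3 replicate 6 (adjusted p = 0.0356), without P21 replicate 3 (adjusted p = 0.0406) or with a filter at log2 6 (adjusted p = 0.0474). With the replicate number as a block it passed as well, at -0.83 (limma adjusted p = 0.0389). All 3 probe sets thus had P21 means below P3. 1370050_at passed at P8 against P3 and 1397224_at at P21 against P8, and that difference between them was not tested.

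Atp2b2 encodes PMCA2, the fast pump whose loss deafens and unbalances deafwaddler mice. Its tested probe set 1368698_at had levels of 9.28, 9.68 and 9.87 at P3 (lowest, median and highest), 10.26, 9.87, 10.34 and 9.96 at P8 and 9.55, 9.72, 9.60, 9.73 and 9.42 at P21. P8 was the highest age, above every P21 array. Atp2b2 was 0.49 ± 0.15 higher at P8 than at P3 (SE, limma adjusted p = 0.0433) and 0.50 ± 0.16 lower at P21 than at P8 (adjusted p = 0.0432). These calls ended in 10 and 11 of the 15 fits that left out 1 array, with the highest adjusted p at 0.109 and 0.111 without P8 replicate 3. They also ended with no filter (adjusted p = 0.0623 and 0.0637) and with only the 2 ages compared (0.0793 and 0.0973), and the P21 against P8 call with array weights (0.0731). The replicate number as a block ended both calls too (adjusted p = 0.100 and 0.114). P21 differed from P3 by -0.01, with a 95% interval of -0.32 to 0.30. In P8 replicates 5 to 9 it lay at 7.11 to 8.24, against 9.87 to 10.34 in replicates 1 to 4.

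Atp2b3 encodes PMCA3, a pump found mainly in brain. Its probe set 1388037_at was at 7.27, 7.50 and 8.32 at P3 (lowest, median and highest), at 8.78, 8.40, 8.10 and 8.40 at P8 and at 10.31, 9.36, 9.62, 9.53 and 9.22 at P21. P21 exceeded all arrays of both other ages. Atp2b3 rose by 1.19 ± 0.25 at P21 over P8 (SE, limma adjusted p = 0.00460) and by 1.96 ± 0.22, or 3.89-fold, over P3 (adjusted p = 8.46e-06). The P8 minus P3 difference of 0.78 ± 0.24 passed (adjusted p = 0.0398). That call ended with no filter (adjusted p = 0.0553) and in 7 of 15 fits with 1 array left out, with an adjusted p up to 0.104 without P8 replicate 1. In all 20 arrays the rise at P21 over P8 was 1.48 with an adjusted p of 0.00140, so it also passed with P8 replicates 5 to 9 included. The 5 measured granule cell markers averaged 4.96 to 7.15 at P21, against 5.04 to 5.42 at P3. Gabra6 was higher at P21 on every array and Fat2 had a higher mean, while Neurod1, Zic1 and Zic2 had lower means. The 4 tested granule cell markers had a median P21 minus P3 difference of -0.04. The part of these markers in the Atp2b3 rise was not tested.

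The dim Atp2b3 probe set 1371172_at lay at 3.35 to 4.36 at P3, 3.22 to 4.77 at P8 and 3.88 to 5.31 at P21, and passed in no comparison. Without P8 replicate 1, its highest P8 array, the P21 minus P8 difference passed (limma adjusted p = 0.0154). Atp2b4 encodes PMCA4, a widely expressed pump. Its only probe set 1370602_at was dim, at 2.91, 3.66 and 4.22 at P3 (lowest, median and highest), 4.35, 3.55, 4.39 and 4.25 at P8 and 4.23, 4.61, 4.52, 3.64 and 4.99 at P21, so that all ages overlapped. Its P21 minus P3 difference was 0.76 ± 0.27 (SE, limma adjusted p = 0.0398). In 7 of 15 fits with 1 array left out it did not pass, up to an adjusted p of 0.105 without P21 replicate 5, nor with no filter (0.0528) or eBayes with trend and robust (0.0618).

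Within arrays, Atp2b1 minus Atp2b3 averaged 1.32 ± 0.28 at P3, 0.32 ± 0.58 at P8 and -2.19 ± 0.42 at P21 (SD, n = 6, 4 and 5). The change of P21 from P3 was -3.51 and that of P21 from P8 was -2.51, with adjusted p-values of 0.0186 and 0.0238 by exact permutation. On these probe sets Atp2b1 was lower and Atp2b3 higher at P21 on every array, so these 2 results follow from the single genes. The P21 against P8 call ended with the probe set of second highest mean (-1.19, adjusted p = 0.0992). With any 1 of the 5 P21 arrays left out, the change was -2.68 to -2.39 and the call ended as well (adjusted p = 0.0571 to 0.0659). As above, too few regroupings remained for those fits to show whether the call rests on single arrays. The change of P8 from P3 was -0.99 (adjusted p = 0.0357), which ended without P3 replicate 2, 3 or 5 or P8 replicate 1, 3 or 4, at adjusted p-values of 0.0510 to 0.0824. Atp2b1 also changed at P21 against P3 relative to Atp2b2, by -1.54, and relative to Atp2b4, by -2.30, and Atp2b2 changed relative to Atp2b3 by -1.97 (each adjusted p = 0.0186). With the probe set of second highest mean for Atp2b1 and Atp2b3, none of these 4 pump ratios passed at P21 against P3. Their adjusted p-values by exact permutation were 0.0520 to 0.232. Atp2b2 and Atp2b4 had 1 tested probe set each and kept it.

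**Figure D2:**
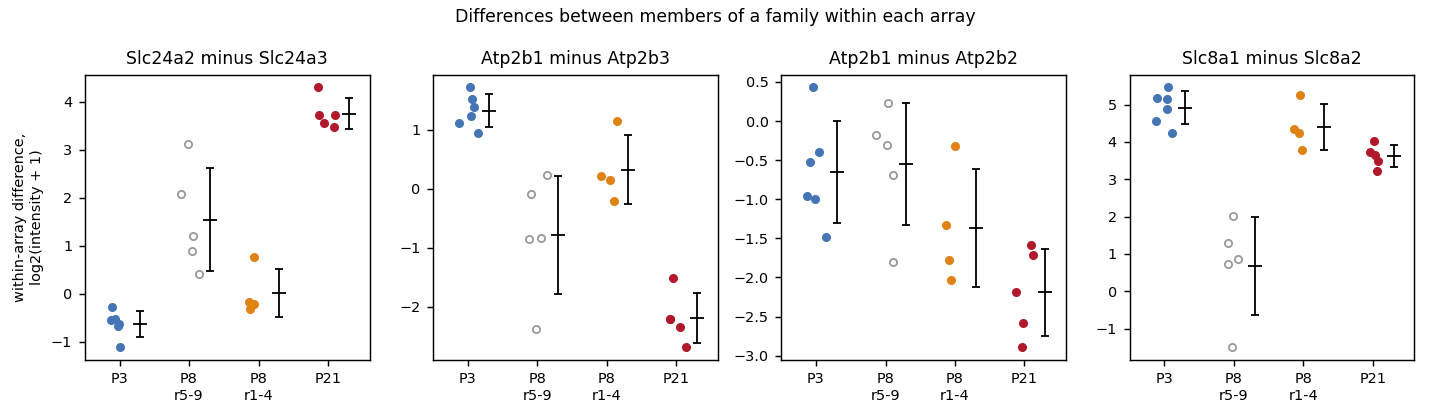
Differences between the levels of 2 genes of a family within each array, on the scale log2(intensity + 1), at P3, P8 replicates 5 to 9 (open circles), P8 replicates 1 to 4 and P21, with mean and SD. Slc24a2 minus Slc24a3 averages 3.75 at P21 and -0.62 at P3, and Atp2b1 minus Atp2b3 averages -2.19 at P21 and 1.32 at P3.

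Atp2a2 encodes SERCA2, which refills the endoplasmic reticulum. Its probe set 1369065_a_at had levels of 10.12, 10.35 and 10.48 at P3 (lowest, median and highest), 10.62, 10.53, 10.69 and 10.61 at P8 and 10.81, 10.86, 10.72, 10.83 and 10.43 at P21. Every P8 array was above every P3 array, and P21 replicate 5 fell within P3. Atp2a2 was 0.39 ± 0.12 higher at P21 than at P3 (SE, limma adjusted p = 0.0189), a call that ended after subtraction of array medians (adjusted p = 0.0598). The replicate number as a block ended that call too (adjusted p = 0.0767). On 1370426_a_at Atp2a2 was 0.63 ± 0.15 higher at P21 than at P3, with no overlap (adjusted p = 0.00316). That probe set lay at 10.22, 10.15, 10.62 and 10.27 at P8, above its P3 range of 9.55 to 9.99, a difference of 0.49 ± 0.16 (adjusted p = 0.0433). The P8 call ended in 8 of 15 fits with 1 array left out, with an adjusted p up to 0.117 without P8 replicate 3. It also ended with median subtraction (adjusted p = 0.0583), with no filter (0.0623), with only the 2 ages compared (0.0537) and with the replicate number as a block (0.149). The 3 dim Atp2a2 probe sets, 1375164_at, 1391771_at and 1398862_at, passed in no comparison of the 15 arrays.

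Atp2a2 also showed how far P8 replicates 5 to 9 lay from the others. On 1370426_a_at they were at 7.09 to 7.79, against 10.15 to 10.62 in P8 replicates 1 to 4, while 1375164_at was at 5.68 to 7.51, against 3.50 to 4.81. The bright Atp2a2 probe sets were thus lower and 2 of the 3 dim ones higher in replicates 5 to 9.

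Among the sodium-calcium exchangers, Slc8a1 encodes NCX1, the main exchanger of the heart, which neurons also express. Its tested probe set 1372449_at had levels of 9.11, 9.40 and 9.88 at P3 (lowest, median and highest), 9.99, 9.35, 8.66 and 9.32 at P8 and 8.85, 9.06, 7.98, 8.84 and 8.41 at P21. P21 was below P3 on every array, and P8 overlapped both. Slc8a1 fell by 0.81 ± 0.24 at P21 against P3 (SE, limma adjusted p = 0.0140). The P21 minus P8 difference of -0.70 ± 0.26 did not pass (adjusted p = 0.0841). It passed without P8 replicate 3 (adjusted p = 0.0262), after subtraction of array medians (-0.79, adjusted p = 0.0453) and with array weights (-0.97, adjusted p = 0.0261).

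Slc8a2 encodes NCX2, an exchanger of brain. Its probe set 1387564_at was dim, at 4.26, 4.41 and 4.87 at P3 (lowest, median and highest), 4.74, 5.01, 4.87 and 5.07 at P8 and 5.13, 5.05, 4.76, 5.18 and 4.91 at P21. The ages overlapped and P21 was 0.48 ± 0.15 above P3 (SE, limma adjusted p = 0.0179). Slc8a3 encodes NCX3, found in brain and skeletal muscle. Its probe set 1387404_at lay at 5.00, 5.13 and 5.64 at P3 (lowest, median and highest), 4.87, 5.91, 5.16 and 4.95 at P8 and 4.31, 4.77, 4.54, 5.18 and 5.41 at P21, with all ages overlapping. Slc8a3 passed in no comparison of the 15 arrays, and the 95% interval of P21 minus P3 was -0.85 to 0.13. Within arrays, Slc8a1 minus Slc8a2 changed by -1.29 at P21 against P3 and Slc8a2 minus Slc8a3 by 0.84 (each adjusted p = 0.0186 by exact permutation). The first change goes with the single-gene calls of Slc8a1 and Slc8a2 and is no separate support. For Slc8a2 minus Slc8a3 the arrays of the 2 ages overlapped, and both probe sets were of low level. Both exchanger probe sets of low level were higher in P8 replicates 5 to 9, at 6.92 to 7.47 for Slc8a2 and 6.32 to 6.60 for Slc8a3, against 4.74 to 5.07 and 4.87 to 5.91 in replicates 1 to 4.

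In the fit of all 20 arrays, 4 of the 12 calls at P21 against P3 held, those of Atp2b1 1370050_at, Atp2b3 1388037_at and both Slc24a2 probe sets. Of these, Slc24a2 1388000_at had passed the filter on the 15 arrays only through its P21 arrays. The P21 and P3 means are the same in the fit of all 20 arrays, and for the 12 called probe sets its SE are larger. Its adjustment also ran over other probe sets, 17325 against 15650. The 8 others no longer passed, Slc24a3 1376165_at among them (limma adjusted p = 0.0789). In that fit 12.6% of all tested probe sets were called at P21 against P3, 25.9% at P8 against P3 and 18.0% at P21 against P8. None of the 6 calls at P8 against P3 held, and 2 of the 6 at P21 against P8 did, Atp2b3 1388037_at and Slc24a2 1383444_at. Calls that only the 20 arrays gave were 3 at P8 against P3, Atp2b4 (1.30), Slc8a2 (1.62) and Slc24a3 1388221_at (1.20), and 2 at P21 against P8, Atp2a2 1370426_a_at (1.71) and Slc8a3 (-1.08). With P8 replicates 5 to 9 the P8 minus P3 difference of Slc24a3 was -0.77, of Atp2b2 -0.87 and of Atp2a2 1370426_a_at -1.08, each opposite in sign to that without them.

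**Figure D3:**
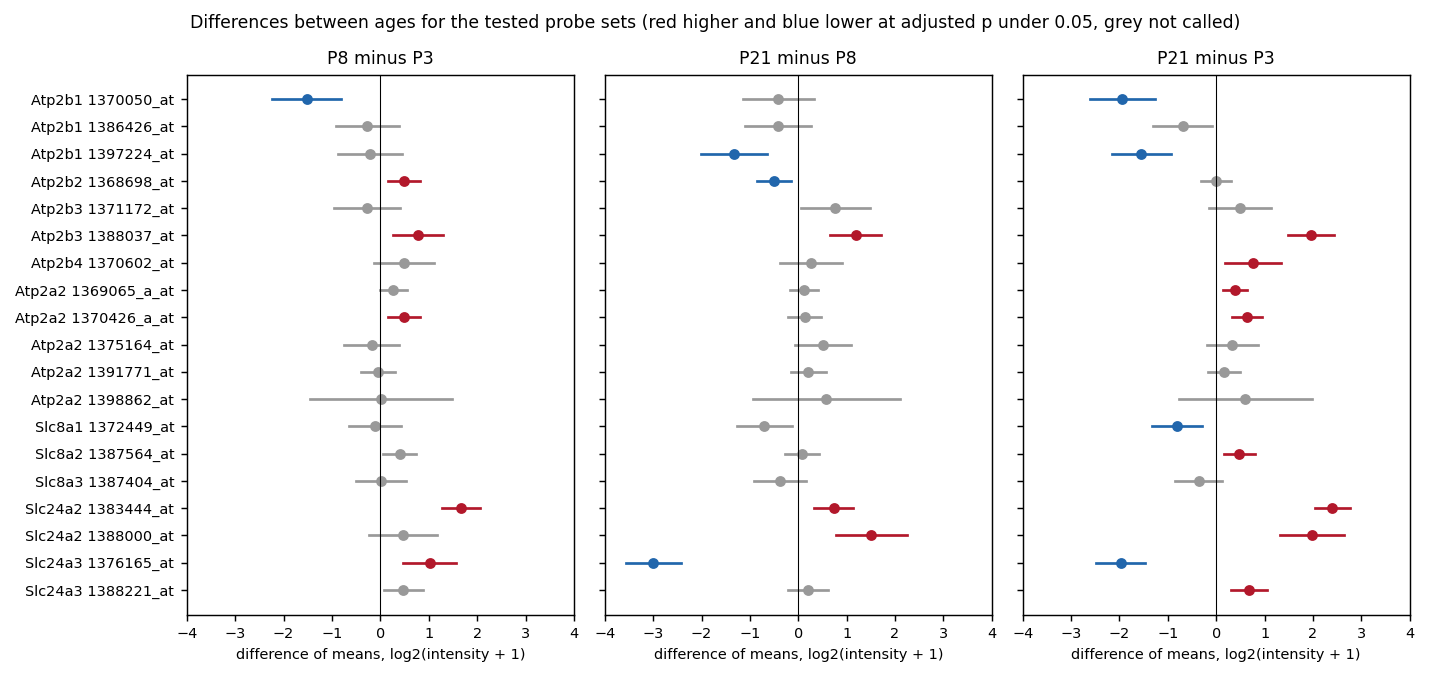
Differences between ages with 95% intervals for the 19 tested probe sets, on the scale log2(intensity + 1), later age minus earlier age, over P3, P8 replicates 1 to 4 and P21, red higher and blue lower at an adjusted p under 0.05. Slc24a2 1383444_at is at 2.40 and Slc24a3 1376165_at at -1.98 for P21 minus P3.

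Other calcium handling genes were counted from lists of 51 genes, of which 43 were tested. At P21 against P3, 12 were higher, 6 lower and 25 did not pass. Over all tested probe sets 39.1% were called, 20.1% higher and 19.0% lower, so the 43 were called about as often as all. Their median difference was 0.19, against 0.02 over all tested probe sets. The same shares stand beside the counts of the single lists below. Of 6 other pumps and exchangers, Slc24a4, an exchanger of the same family as Slc24a2, rose by 1.94 ± 0.22 (SE, limma adjusted p = 6.99e-06) and Atp2a3, another reticulum pump, by 0.86 ± 0.23. Atp2c1, the calcium and manganese pump of the Golgi, fell by 1.67 ± 0.22 (adjusted p = 3.30e-05). Slc24a4 averaged 5.37 at P3, 6.39 at P8 and 7.31 at P21, and Atp2c1 8.70, 7.80 and 7.03.

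Among 11 partners and regulators of the pumps, 4 were higher and 1 lower. Nherf2, a scaffold that binds plasma membrane pumps, rose by 1.61 ± 0.21 (SE, limma adjusted p = 3.37e-05), and S100a1, a calcium sensor, by 0.96 ± 0.25. Capn1, a calcium-activated protease, rose by 0.64 ± 0.17. Sln, which inhibits reticulum pumps, fell by 1.07 ± 0.31 (adjusted p = 0.0140).

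Among 13 genes of calcium release and binding in the reticulum, 4 were higher and 2 lower. Itpr1, the inositol trisphosphate receptor, rose by 1.93 ± 0.33 (SE, limma adjusted p = 3.45e-04) and Ryr2, a ryanodine receptor, by 1.46 ± 0.23 (adjusted p = 1.36e-04). Homer1, a scaffold that links such receptors to glutamate receptors, rose by 1.70 ± 0.50. Rcn1, a calcium-binding protein of the lumen, fell by 2.95 ± 0.26 (adjusted p = 7.21e-07). Ryr2 averaged 8.59 at P8 against 7.38 at P3, which passed (limma adjusted p = 0.00462), and Itpr1 6.06 at P8 against 6.12 at P3, which did not (adjusted p = 0.928). For store-operated entry, Stim1, the reticulum calcium sensor, rose by 0.88 ± 0.27 and Orai2, a channel subunit, fell by 0.57 ± 0.20, with 1 of 6 genes in each direction. Of 7 mitochondrial genes, Micu3, a regulator of the uniporter, rose by 1.30 ± 0.13 (adjusted p = 2.07e-06) and Mcur1, another regulator, fell by 1.53 ± 0.34 (adjusted p = 0.00212).

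**Figure D4:**
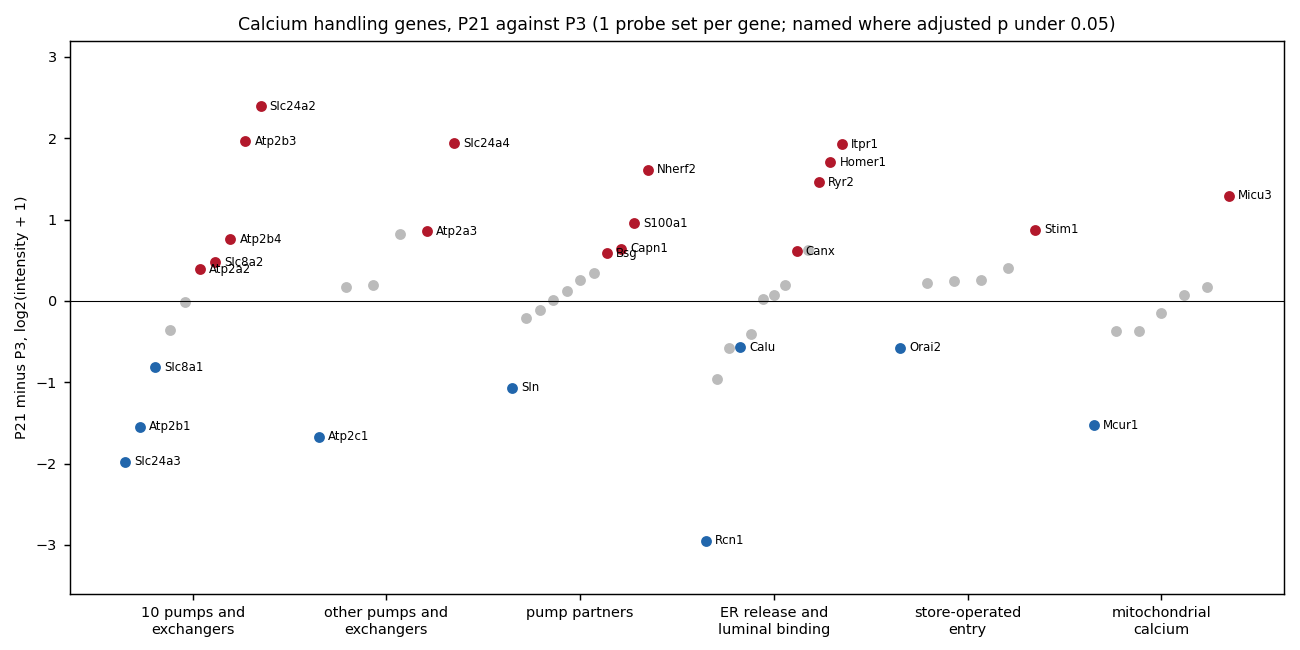
Differences of P21 from P3 for the 10 pumps and exchangers and the other tested calcium handling genes, by list, on the scale log2(intensity + 1), 1 probe set per gene, each point a gene and each named where called in limma. Slc24a2 is highest of the 10 genes at 2.40 and Rcn1 lowest of all at -2.95.

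The probe sets of other genes whose levels followed Slc24a2 1383444_at most closely over the 15 arrays were those of Igip, Mobp, Hgsnat, Sorl1 and Pip5kl1, with Pearson correlations of 0.982, 0.982, 0.980, 0.977 and 0.976. For Slc24a3 1376165_at they were Wdr1, Klhl13, Sorcs3, Enc1 and Egfl6, at 0.976, 0.960, 0.942, 0.940 and 0.935. The 15 arrays fall into 3 ages and share their scaling, so these values largely describe differences between ages. Around the age means the correlations were 0.480 to 0.673 with the Slc24a2 set and 0.489 to 0.832 with the Slc24a3 set. These probe sets were picked for high correlation over the same arrays, which also favours high values here, and no background was computed. Mobp is a myelin gene, at 10.39 at P21, against 2.21 at P3, and the myelin marker ranges are given above.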

How the data were processed

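The authors deposited linear intensity values for 20 arrays, 1 for each probe set. GCRMA is named, without a version, in the submitters' processing notes, but its output is on a log2 scale, and the software behind these linear values is not named in the sources used here. Each array had a mean of 100 once the lowest and highest 2% of probe sets were left out, so arrays were scaled as wholes. The number of arrays limits the precision.

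Of 31099 probe sets, 57 are controls, and by the platform annotation 20832 have 1 gene, 436 several and 9831 are unnamed here. Symbols were updated through RefSeq (GRCr8) by Entrez identifier for 20764 and kept for 68. Values were analysed as log2(intensity + 1), where a pseudocount of 1 understates changes of dim probe sets. Probe sets above log2 4 in at least 5 of 15 arrays were tested by limma 3.58.1 (R 4.3.3), using lmFit and eBayes on 1 model of the 3 ages, with Benjamini-Hochberg adjustment and calls under 0.05. Every adjusted p of a single gene is from limma. Differences between family members within an array were tested by exact permutation over all regroupings, two-sided, adjusted over 30 tests. P8 replicates 5 to 9 enter only where stated.

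The members, the 16 gene and marker lists and the exclusion of P8 replicates 5 to 9 were chosen with earlier results of these data known. All member probe sets are named. Of the other lists, up to 4 called genes with the largest differences of P21 from P3 are named, and the 5 probe sets most like the members with the largest called rise and fall. Genes with several probe sets stand by that of highest mean in such counts. The scripts were tested on simulated data. Alternatives were all 20 arrays, a pseudocount of 16, no filter, a filter at log2 6, quantile normalization, median subtraction, 1 probe set per gene, only the 2 ages compared, another variance model, array weights, the replicate number as a block and each array left out. The labels name no litters or dates, so p-values measure the spread between these samples.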

Additional observations from a re-analysis of the deposited data

Results flagged for a closer look

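In each group of 4 to 6 arrays the highest or lowest array was compared with the others by Dixon's ratio, which flags about 1 in 20 groups by chance. Of 76 groups tested, 3 had an array standing apart, all on dim probe sets. Atp2b3 1371172_at was at 4.77 on P8 replicate 1, against 3.22 to 3.38 on the other P8 arrays of replicates 1 to 4. Atp2a2 1375164_at was at 3.50 on P8 replicate 2, against 4.59 to 4.81 on the others. Atp2a2 1398862_at was at 1.07 on P3 replicate 6, against 3.70 to 5.10 on the other P3 arrays.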

How the results depend on the processing

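Over the 3 comparisons, P8 against P3, P21 against P8 and P21 against P3, limma called 2435, 2619 and 6114 probe sets. With all 20 arrays it called 4489 at P8 against P3 and 2184 at P21 against P3, with only the 2 ages compared 1349 at P21 against P8, and with the replicate number as a block 1306, 1886 and 5393. Leaving out 1 array gave 1806 to 2493, 2076 to 2804 and 5477 to 6683. Same-numbered arrays correlated at -0.06 to 0.078 around their age means, so the numbers were not taken as pairs. At P8 against P3 all 4 arrays correlated best with their own number, a hint from the data only. Of 10 family ratios, 2, 4 and 7 passed, against 6 at P8 against P3 with all 20 arrays. With the probe set of second highest mean 0, 0 and 3 passed. These 3 were Slc8a1 minus Slc8a2, Slc8a2 minus Slc8a3 and Slc24a2 minus Slc24a3. The Slc8a genes had 1 tested probe set each and kept it, so their differences were those of the main test. The second Slc24a2 probe set passed the filter only through its P21 arrays. None of the 3 is thus separate support. With the replicate block 0, 0 and 0 passed, and its sign-flip test of so few pairs cannot pass. Leaving out 1 array gave 0 to 2, 0 to 5 and 7 to 8 passing ratios. At P21 against P8, fits without 1 P21 array leave too few regroupings for a ratio to pass unless most tests have small p-values. Ratios of single pairs were recomputed only where called. With all 20 arrays Atp2b1 minus Atp2b4 was 0.12 at P21 against P8, and with the second probe set Atp2b1 minus Atp2b3 was 0.0076 and Slc24a2 minus Slc24a3 -0.013 at P8 against P3.

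Signs turned with all 20 arrays for P8 minus P3 of Atp2b2 1368698_at (-0.87), Atp2b3 1371172_at (0.95), Atp2a2 1369065_a_at (-0.38), 1370426_a_at (-1.08), 1375164_at (1.17) and 1391771_at (0.99) and Slc24a3 1376165_at (-0.77). For P21 minus P8 they turned for Atp2b2 (0.86), Atp2b3 1371172_at (-0.46), Atp2b4 (-0.54), Atp2a2 1375164_at (-0.84) and 1391771_at (-0.83), Slc8a1 (0.15), Slc8a2 (-1.14) and Slc24a3 1388221_at (-0.52). Small uncalled differences also turned. Atp2a2 1398862_at at P8 against P3 was -0.074 with a pseudocount of 16, -0.31 with array weights and -0.48 with the replicate block, and Atp2a2 1391771_at 0.020 with quantile normalization and 0.041 with median subtraction. With array weights Atp2b3 1371172_at was 0.082, Slc8a1 0.19 and Slc8a3 -0.12 at P8 against P3. With the replicate block Atp2a2 1375164_at was 0.0084 at P8 against P3 and Atp2b2 0.039 at P21 against P3, and with median subtraction Slc8a2 was -0.0020 at P21 against P8. With 1 array left out, 6 uncalled differences turned, in 16 fits in all. They were those of Atp2a2 1398862_at (-0.57 to 0.38), 1375164_at (-0.32 to 0.12) and 1391771_at (-0.18 to 0.055), Slc8a1 (-0.33 to 0.11) and Slc8a3 (-0.21 to 0.14) at P8 against P3 and of Atp2b2 (-0.080 to 0.039) at P21 against P3. The causes were not tested.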
